A study of Mus musculus with 6 samples.

Results

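Transcripts of the UDP-glucuronosyltransferase 2 (UGT2) genes, and of the enzymes that make their co-substrate, were compared between livers of Nrf2 knockout mice and livers of wild-type mice. The members were named by gene symbol: Ugt2b1, Ugt2b5, Ugt2b34, Ugt2b35, Ugt2b36, Ugt2b38, Ugt2a3, Ugdh and Ugp2, which is 9 of the 18193 genes that have a probe set of their own on the array. They carried 14 probe sets annotated to exactly 1 of these symbols, and all 14 were bright enough to be tested. The series holds 6 arrays, 3 of liver RNA from mice labelled as Nrf2 ko and 3 of liver RNA from mice labelled as Nrf2 wt. All mice had the strain label C57B/SV129 and an age of 10 weeks, and each array was hybridised with RNA pooled from 3 animals. The labels name no targeted allele, sex, diet, surgery or treatment. Arrays of 1 genotype are labelled as biological replicates, with no word on whether pools shared animals, so the p-values rest on differences among pools rather than among single mice.

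UGT2 enzymes sit in the membrane of the endoplasmic reticulum and transfer glucuronic acid from UDP-glucuronic acid to bile acids, steroids, drugs and other lipophilic compounds, which can then leave the hepatocyte in bile or blood. The donor is made in the cytosol: UDP-glucose pyrophosphorylase, encoded by Ugp2, makes UDP-glucose from glucose 1-phosphate, and UDP-glucose dehydrogenase, encoded by Ugdh, oxidises it to UDP-glucuronic acid. Nfe2l2 encodes Nrf2, which pairs with small MAF proteins on antioxidant response elements and is known for driving conjugation and NADPH-producing genes in liver. The comparison asks how the transcripts of this conjugation step differ in a liver that lacks Nrf2.

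The brighter Nfe2l2 probe set read 5.74, 7.40 and 6.90 in the knockout, against 696, 598 and 625 in the wild type, so each array matched its genotype label there. A dim probe set of the gene, with 20.2 to 34.4 on all arrays, had a log2 difference of 0.14 ± 0.22 (SE). The 8 hepatocyte marker genes, Alb and Ttr among them, summed to 70815 to 76659 in the knockout pools and 73300 to 76819 in the wild-type pools, and none passed the test. Markers of cholangiocytes (2 of 6 tested), Kupffer cells (6 of 6), sinusoidal endothelial cells (6 of 6), stellate cells (6 of 6), pancreas (3 of 7) and gut epithelium (1 of 5) also held no gene past the threshold, with list medians of -0.22, 0.01, 0.18, 0.16, 0.50 and -0.20 log2. Genes lower and higher in the knockout numbered 3 and 5 for hepatocytes, 2 and 0 for cholangiocytes and 3 and 3 for Kupffer cells. The counts were 2 and 4 for sinusoidal endothelial cells and 0 and 6 for stellate cells. They were 0 and 3 for pancreas and 1 and 0 for gut epithelium. The summed intensity of each of these 7 marker lists overlapped between the genotypes. The summed intensity of 7 male-biased liver genes (Cyp4a12a, Cyp7b1 and Elovl3 among them) did not overlap, at 15446 to 27873 in the knockout pools and 28945 to 33187 in the wild-type pools. Of those 7 genes 6 were lower in the knockout and none passed, with a median of -0.32 log2, and the 2 female-biased genes measured, Cyp2b9 and Sult3a1, had intensities of 13.0 or less on every array. The ratio of 3′ to 5′ signal of the actin control was 1.942 to 2.005 in the knockout pools. In the wild-type pools it was 1.772 to 1.936, without overlap (exact permutation p = 0.1, the smallest that 3 against 3 allows). For the Gapdh control the ratio was 0.725 to 0.793 in the knockout pools and 0.756 to 0.767 in the wild-type pools. The Gapdh ratios overlapped (exact permutation p = 0.9). The male-biased genes and the actin ratio moved with genotype on the same arrays as the results below, and their part in those results was not tested.

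The Ugt2b genes share a short promoter block, shown here because 6 of the 9 members belong to this subfamily, among them the 2 that passed the test, Ugt2b35 and Ugt2b5. RefSeq promoter windows of assembly GRCm38.p6, from 250 bases before to 50 after each annotated start, were matched for all 9 genes, 10 windows in all since Ugp2 has 2. In an alignment of the 6 Ugt2b windows, ungapped stretches of 15 columns before the start were searched, and the bases after it were not. The first stretch with the most columns alike in all 6 (10 of 15) held the letters GTTANANNTTAAC. These letters stand in each window on the gene's own strand and lie within 89 to 49 bases upstream of the start. The windows with the lowest and the highest difference among the Ugt2b genes, and those of the closely alike pair Ugt2b5 and Ugt2b38, are printed 5′ to 3′ on the strand of the gene with this block in capitals. They lie at chr5:87000730-87000832 on the plus strand and, on the minus strand, at chr5:87424225-87424327, chr5:87140359-87140461 and chr5:87092577-87092679.
Ugt2b35: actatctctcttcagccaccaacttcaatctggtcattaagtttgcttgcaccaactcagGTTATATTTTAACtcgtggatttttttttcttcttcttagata
Ugt2b38: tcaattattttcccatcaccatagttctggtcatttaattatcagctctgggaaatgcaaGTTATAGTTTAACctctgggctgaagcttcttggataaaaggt
Ugt2b5: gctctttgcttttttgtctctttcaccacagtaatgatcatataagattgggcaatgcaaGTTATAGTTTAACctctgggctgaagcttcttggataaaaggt
Ugt2b36: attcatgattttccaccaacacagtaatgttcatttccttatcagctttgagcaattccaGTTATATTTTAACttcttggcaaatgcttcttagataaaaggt

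Over the whole aligned windows Ugt2b5 and Ugt2b38 were 88.6% identical, while Ugt2b35 was 58.3% to 59.1% identical to Ugt2b36, Ugt2b38 and Ugt2b5. The block was read from these promoters, so its presence in them is no result. On either strand it was held by 30 of all 32851 windows, or 0.0913%. Of the 30, 7 were Ugt2b windows and 23 were not. Among the 30 were also the windows of Ugt2b37, the remaining Ugt2b gene of the table, and of Ugt3a1, neither of which had been aligned. The 3 Ugt2a windows, Ugt2a3 included, did not hold these letters.

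The core letters of the antioxidant response element, TGACNNNGC on either strand, were searched in the same windows. They were found in the Ugdh window alone among the 10, and in 12.4% of all 32851 windows. The Ugdh window held them in both orientations, 132 to 124 and 94 to 86 bases upstream of the start, as printed from chr5:65435898-65436004 on the minus strand with the matches in capitals. None of the 10 windows held both motifs. A match is a description of the letters, and elements farther from the start were not searched.
Ugdh: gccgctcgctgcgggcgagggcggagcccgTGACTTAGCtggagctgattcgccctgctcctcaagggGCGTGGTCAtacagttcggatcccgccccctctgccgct

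Transcripts of all 6 Ugt2b genes were lower in the Nrf2 knockout, those of Ugdh were lower as well, and those of Ugt2a3 and Ugp2 overlapped between the genotypes. Of the 14 probe sets, 13 had a negative log2 difference, 8 had every knockout pool below every wild-type pool, and 2 passed an adjusted p of 0.05, both lower. Across all 22519 tested probe sets, 6.57% had every knockout pool lower and 0.0977% passed with a lower knockout. By gene, taking the brightest probe set of each, the members had a median log2 difference of -0.43, against 0.01 over all 11102 tested genes. Adjusted p-values are those of limma with Benjamini-Hochberg adjustment over all tested probe sets, differences are on the normalized log2 scale, and errors are standard errors with n = 3 pools per genotype. In whole liver, fewer cells of a type and less RNA per cell cannot be told apart. Intensities of different probe sets cannot be set against each other, so genes are compared by their differences between genotypes.

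**Figure D1:**
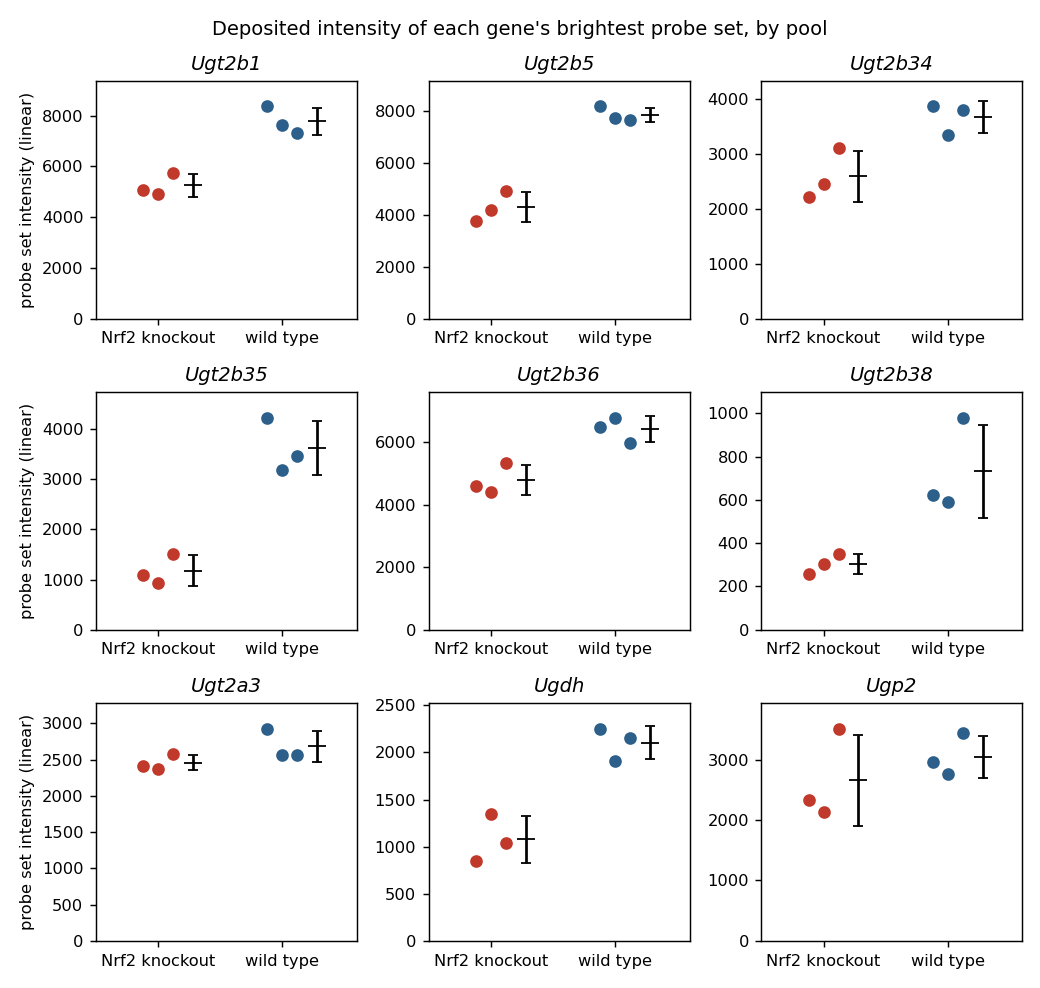
Deposited linear intensity of the brightest probe set of each member gene, with 1 point per pool, Nrf2 knockout at left and wild type at right; horizontal marks and bars are the mean and SD of 3 pools, and each axis starts at 0. The knockout points lie below the wild-type points for the 6 Ugt2b genes and Ugdh, and the points of Ugt2a3 and Ugp2 overlap.

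Ugt2b35 had the lowest difference of the members. Its probe set gave intensities of 1085, 925 and 1516 in the knockout pools, against 4225, 3178 and 3466 in the wild-type pools. Every knockout pool lay far below every wild-type pool, with knockout pool 3 the nearest to them. Ugt2b35 fell by 1.51 ± 0.14 on the log2 scale, to 35.2% of the wild-type level (2.84-fold lower, adjusted p = 0.00289).

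Ugt2b5 also fell, by less and with the smallest standard error of the members. Intensities of Ugt2b5 were 3749, 4193 and 4895 in the knockout pools, against 8156, 7710 and 7624 in the wild-type pools. The knockout pools were all lower, and after normalization the SD among pools was 0.03 log2 in the knockout and 0.07 log2 in the wild type. Ugt2b5 fell by 0.74 ± 0.07 log2, to 59.7% of the wild-type level (adjusted p = 0.00289). That call was lost when arrays were centred on their medians in place of quantile normalization (adjusted p = 0.0938) and without the intensity trend of the variance (adjusted p = 0.150), at log2 differences of -0.77 and -0.74.

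Ugt2b38, whose promoter window is the closest to that of Ugt2b5, had the second lowest difference but more spread. Its intensities were 257, 304 and 348 in the knockout pools, against 624, 590 and 980 in the wild-type pools. The groups did not overlap, and wild-type pool 3 stood above the other wild-type pools. The log2 difference of Ugt2b38 was -1.06 ± 0.16 with an adjusted p of 0.0740, just over the threshold. It passed with median centring (-1.12, adjusted p = 0.0446) and without wild-type pool 1 (-1.26, adjusted p = 0.0292).

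The other 3 Ugt2b genes had smaller differences that did not pass, each with all knockout pools below all wild-type pools. Ugt2b1 gave 5087, 4915 and 5749 in the knockout pools, against 8361, 7647 and 7322 in the wild-type pools, a log2 difference of -0.43 ± 0.08 (adjusted p = 0.183). Ugt2b34 gave 2215, 2444 and 3102 in the knockout pools, against 3856, 3337 and 3798 in the wild-type pools, at -0.38 ± 0.08 (adjusted p = 0.242). A second probe set of Ugt2b34 lay at 1439, 1499 and 2037 in the knockout pools, against 2417, 2396 and 2746 in the wild-type pools, with a log2 difference of -0.48 ± 0.11 (adjusted p = 0.296). The 2 probe sets of Ugt2b34 thus went the same way by similar amounts, and the brighter one is of a design that can bind more than 1 transcript. Ugt2b36 gave 4595, 4425 and 5335 in the knockout pools, against 6488, 6791 and 5976 in the wild-type pools, at -0.27 ± 0.11 (adjusted p = 0.612). Without wild-type pool 2 the difference of Ugt2b36 was -0.15. For this gene the groups nearly touched after normalization, with 12.36 log2 in both the highest knockout pool and the lowest wild-type pool. The sequences of the probes were not used here, and how far near-identical UGT2 transcripts bind each other's probes was not tested.

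Ugt2a3, the member outside the Ugt2b subfamily, showed no difference that these pools could resolve. Its intensities were 2420, 2374 and 2573 in the knockout pools, against 2927, 2559 and 2562 in the wild-type pools, and the groups overlapped. The log2 difference of Ugt2a3 was 0.01 ± 0.12, with a 95% confidence interval of -0.26 to 0.28 (adjusted p = 0.989). The sign turned to -0.02 when arrays were centred on their medians, so no direction is given for Ugt2a3.

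Of the enzymes of UDP-glucuronate supply, neither passed. Ugdh, which makes the donor itself, gave 853, 1349 and 1037 in the knockout pools, against 2252, 1906 and 2153 in the wild-type pools. All knockout pools were lower, and knockout pool 2 was the highest of them. The log2 difference of Ugdh was -0.82 ± 0.16, at 56.8% of the wild-type level, with an adjusted p of 0.170. Without knockout pool 2 Ugdh passed, at -1.003 (adjusted p = 0.0215). In the fit blocked on replicate number it fell just short (adjusted p = 0.0507).

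Ugp2, which makes UDP-glucose for glycogen and other products as well as for Ugdh, was measured by 5 probe sets, and none passed. The brightest gave 2328, 2128 and 3509 in the knockout pools, against 2954, 2759 and 3434 in the wild-type pools. Knockout pool 3 lay above all wild-type pools and the other knockout pools below them, so the groups overlapped. The log2 difference there was -0.09 ± 0.13, with a 95% confidence interval of -0.40 to 0.21 (adjusted p = 0.915). The 4 dimmer probe sets of Ugp2 had log2 differences of -0.14, -0.11, -0.03 and -0.10, and at each of them the groups overlapped too. Without knockout pool 2 the difference at the brightest probe set was 0.04.

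**Figure D2:**
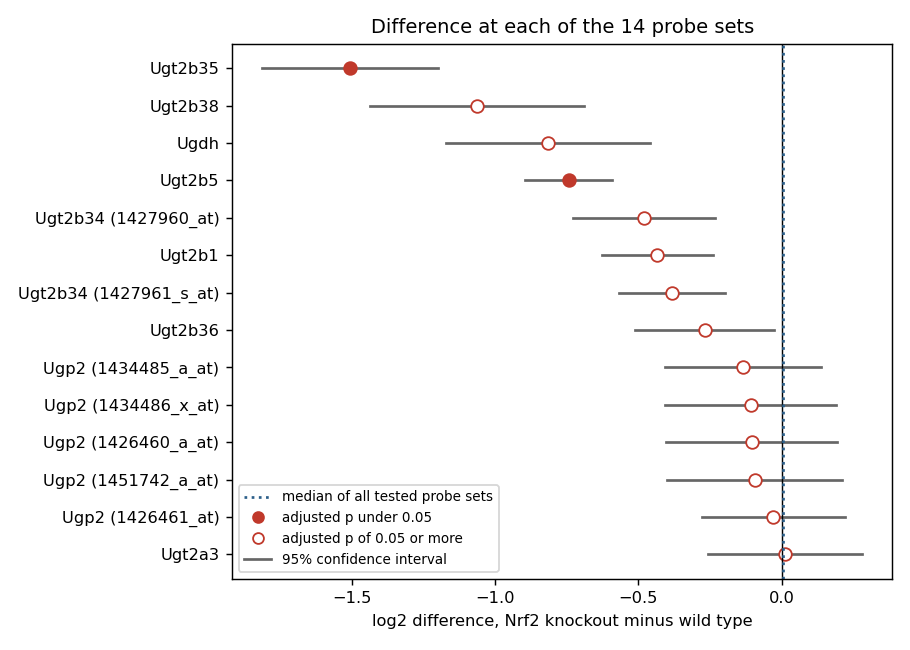
Log2 difference, Nrf2 knockout minus wild type, at each of the 14 member probe sets (points) with its 95% confidence interval (lines); filled points passed an adjusted p of 0.05, and the dotted line is the median of all tested probe sets. Ugt2b35 and Ugt2b5 are filled, and the intervals of Ugp2 and Ugt2a3 cross 0.

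In order of their log2 differences the members ran from Ugt2b35 through Ugt2b38, Ugdh, Ugt2b5, Ugt2b1, Ugt2b34, Ugt2b36 and Ugp2 to Ugt2a3. Neighbours in this order were compared by the log2 ratio of their signals within each array, with 3 further comparisons, 11 in all, by exact two-sided permutation of the 6 arrays. With 3 against 3 such a test cannot go below 0.1, so none of these ratios can pass. Of the 8 neighbour pairs, the ratio overlapped between genotypes in 7. The pairs were formed by the same differences, so an overlap does not show that neighbours moved alike. The exception was the ratio of Ugt2b5 to Ugt2b1, which was -0.30 ± 0.11 log2 in the knockout and 0.01 ± 0.07 log2 in the wild type (SD, exact p = 0.1, 0.367 after Benjamini-Hochberg adjustment over the 11).

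Farther apart in the order, Ugt2b35 minus the mean of the other 5 Ugt2b genes was -1.06 ± 0.22 log2 in the knockout and -0.13 ± 0.19 log2 in the wild type (SD). Ugt2b35 was set against the others because its difference was the lowest, so this is a description. The mean of the 6 Ugt2b genes minus Ugt2a3 was -0.20 ± 0.16 log2 in the knockout and 0.54 ± 0.13 log2 in the wild type, with no overlap (SD, exact p = 0.1, 0.367 adjusted over the 11). Ugdh minus Ugp2 was -1.28 ± 0.58 log2 in the knockout and -0.56 ± 0.14 log2 in the wild type, and these overlapped (SD, exact p = 0.2). This test leaves a difference between the 2 supply enzymes unsettled.

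The pools of a genotype agreed on the Ugt2b genes as a group. Averaged over the 6 genes and set against the wild-type mean, the knockout pools were at -0.71, -0.80 and -0.69 log2, and the wild-type pools at -0.04, 0.10 and -0.06 log2. Wild-type pool 2 was the highest of its genotype after normalization for 6 of the 9 member genes. Its trimmed mean intensity was the lowest, at 92.7 against 92.8 to 132 on the other arrays. Knockout pool 1, with 92.8, was the highest of its genotype for 3 members. Wild-type pool 3 was the lowest of its genotype for 7 of the 9. Among the knockout pools no pool was highest for more than 4 members.

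The 7 UGT2 members lie in 1 cluster on chromosome 5, with Ugt2b37, Ugt2a1 and Ugt2a2, and no other protein-coding gene stands between them in RefSeq's GRCm38.p6 annotation. In the order along the chromosome the log2 differences were -0.38 for Ugt2b34, -0.43 for Ugt2b1, -1.51 for Ugt2b35, -0.27 for Ugt2b36, -0.74 for Ugt2b5, -0.50 for Ugt2b37, 0.01 for Ugt2a3 and -1.06 for Ugt2b38. The differences did not run in 1 direction along the cluster. Ugt2b35, with the lowest difference, stands between Ugt2b1 and Ugt2b36, and its printed window lies on the opposite strand to those of Ugt2b36, Ugt2b5 and Ugt2b38. The tested genes beside the cluster, looked up after the members' values were seen, were Ythdc1, a reader of methylated RNA, at 0.00 ± 0.14 log2, and on the far side the sulfotransferase genes Sult1b1, at -0.42 ± 0.20, and Sult1d1, at 0.64 ± 0.20. None of these 3 passed (adjusted p = 0.997, 0.676 and 0.536). Ugdh lies on chromosome 5 outside the cluster.

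**Figure D3:**
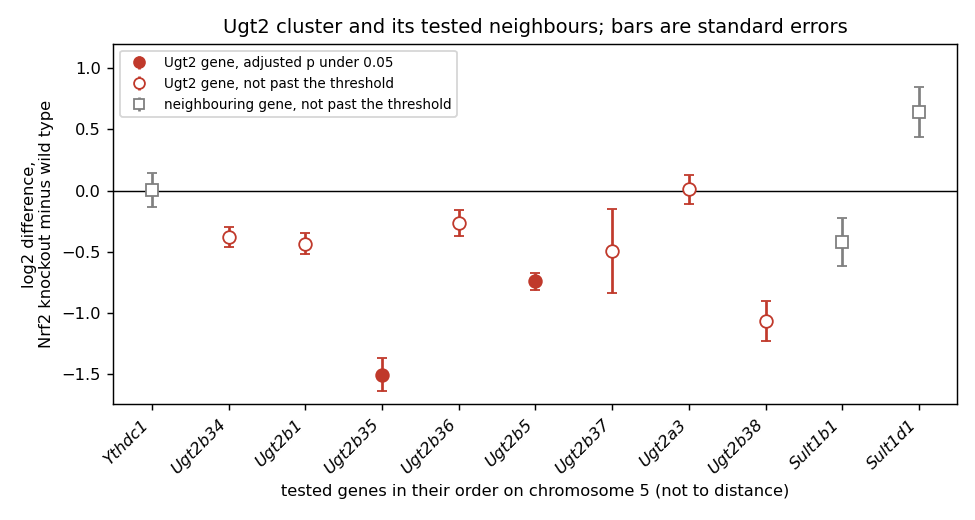
Log2 difference, Nrf2 knockout minus wild type, of the tested Ugt2 genes (circles) and their nearest tested neighbours (squares) in their order along chromosome 5, with equal spacing in place of distance; bars are standard errors, and filled symbols passed an adjusted p of 0.05. The difference goes from -0.43 at Ugt2b1 to -1.51 at Ugt2b35 and back to -0.27 at Ugt2b36.

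Other UGT genes were lower without passing. Ugt2b37 was dim, with 32.6, 22.8 and 56.8 in the knockout pools, against 62.5, 27.3 and 101 in the wild-type pools, and overlapped (log2 difference -0.50 ± 0.35, adjusted p = 0.780). Ugt3a1 and Ugt3a2, of a family that uses UDP-sugars other than UDP-glucuronic acid, had log2 differences of -0.74 ± 0.21 (adjusted p = 0.448) and -0.39 ± 0.15 (adjusted p = 0.607). Of the 15 genes of this list 3 were tested, all with a negative difference, and 0 passed by limma. An unadjusted p under 0.05 with a lower knockout was seen for 2 of the 3, against 4.15% of all 11102 tested genes. The UGT1A genes share their last exons, and the 3 probe sets annotated to 8 of them at once belong to no single gene. Those 3 had log2 differences of -0.16, -0.21 and -0.17, and none passed (adjusted p from 0.607 to 0.712). The groups overlapped at the first. At the other 2 every knockout pool was lower, as at 6.57% of all tested probe sets, with unadjusted limma p of 0.0290 and 0.0423. They were looked up after the members' values were seen.

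Of the 51 tested genes of 6 lists on the steps around glucuronidation, 39 had a lower level in the knockout and 12 a higher one, 2 passed, both lower (0.108% of all tested genes), and the median log2 difference was -0.16, against 0.01 over all tested genes. By the same measure 48.6% of all tested genes were lower. The lists were written with earlier results of these data known. Entpd5, a nucleotidase of the endoplasmic reticulum that hydrolyses the UDP released by transferases there, fell by 0.69 ± 0.08 log2 (adjusted p = 0.0215). Its intensities were 782, 799 and 913 in the knockout pools, against 1699, 1213 and 1648 in the wild-type pools. The dimmer probe sets of Entpd5 were lower too, at -0.76, -0.61, -0.55 and -0.84 log2. None of those passed (adjusted p from 0.0838 to 0.412). Abcc3, a pump of the basolateral membrane that exports glucuronides to blood, fell by 1.98 ± 0.27 log2 (adjusted p = 0.0438). The Abcc3 intensities were 141, 288 and 406 in the knockout pools, against 1412, 1019 and 1035 in the wild-type pools, with no overlap. The call of Entpd5 was lost when any 1 pool was left out, at log2 differences of -0.74 to -0.65 (adjusted p from 0.0570 to 0.163), and without the intensity trend (0.195). That of Abcc3 was lost without knockout pool 2 (adjusted p = 0.129) and when any wild-type pool was left out (0.219 for pool 1, 0.304 for pool 2 and 0.0679 for pool 3), at log2 differences of -2.13 to -1.91. It was also lost without the filter on dim probe sets (0.0867), without the trend (0.176) and in the fit blocked on replicate number (0.0587), each at -1.98.

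The transporters that bring UDP-sugars into the endoplasmic reticulum were led by Slc35d1, a carrier of UDP-glucuronic acid. Slc35d1 gave 555, 635 and 739 in the knockout pools, against 1165, 843 and 993 in the wild-type pools, a log2 difference of -0.47 ± 0.09 (adjusted p = 0.183). Its dim second probe set went the other way, at 0.13 ± 0.25. Slc35b1, an adenine nucleotide carrier of the same membrane, was at -0.37 ± 0.11 (adjusted p = 0.469). Of the 8 tested genes of this transport and nucleotide list 5 were lower, 1 of which passed, with a median of -0.17.

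Among the 15 tested genes of UDP-sugar supply and use, 11 were lower and 0 passed by limma, with a median log2 difference of -0.07. Of the 15, 4 were lower at an unadjusted p under 0.05, against 4.15% of all tested genes. Gbe1, the branching enzyme of glycogen synthesis, was at -0.72 ± 0.24 and the uridine kinase gene Uck1 at -0.53 ± 0.18. Ugcg, which makes glucosylceramide from UDP-glucose, was at -0.45 ± 0.16 at its brightest probe set but at 0.39 and 0.17 at 2 others, so its direction is not settled.

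Of the 9 tested genes of glucuronide hydrolysis and glucuronate use, 7 were lower and 0 passed by limma, with a median of -0.08. Of the 9, 3 were lower at an unadjusted p under 0.05, against 4.15% of all tested genes. Ces1e, whose product egasyn holds beta-glucuronidase in the endoplasmic reticulum, gave 393, 486 and 443 in the knockout pools, against 1305, 835 and 779 in the wild-type pools. The groups did not overlap, the log2 difference of Ces1e was -0.94 ± 0.19 (adjusted p = 0.187), and it passed without wild-type pool 3 (-1.15, adjusted p = 0.0381). Gusb itself, the beta-glucuronidase that splits glucuronides, was at 0.28 ± 0.14, chosen after its value was seen. Cryl1, a dehydrogenase of the glucuronate pathway, was at -0.54 ± 0.16, and Akr1a1, which reduces glucuronate, at -0.18 ± 0.07, with each of its 4 probe sets lower.

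All 5 conjugate exporter genes had a negative log2 difference, with a median of -0.35, and Abcc3 alone passed. Abcg2, an efflux pump of the canalicular membrane, was at -0.61 ± 0.20 (adjusted p = 0.539) and passed without knockout pool 3 (-0.86, adjusted p = 0.0432). Abcc2, which exports glucuronides to bile, was at -0.35 ± 0.17. Of the 11 tested regulators of UGT genes 8 were lower, with a median of -0.10, and 0 passed by limma, with 0 at an unadjusted p under 0.05. The xenobiotic receptor genes Nr1i2 and Nr1i3 were at 0.28 ± 0.12 and -0.44 ± 0.23, and their partner gene Rxra at -0.17 ± 0.10, with a second Rxra probe set at 0.07 ± 0.12.

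**Figure D4:**
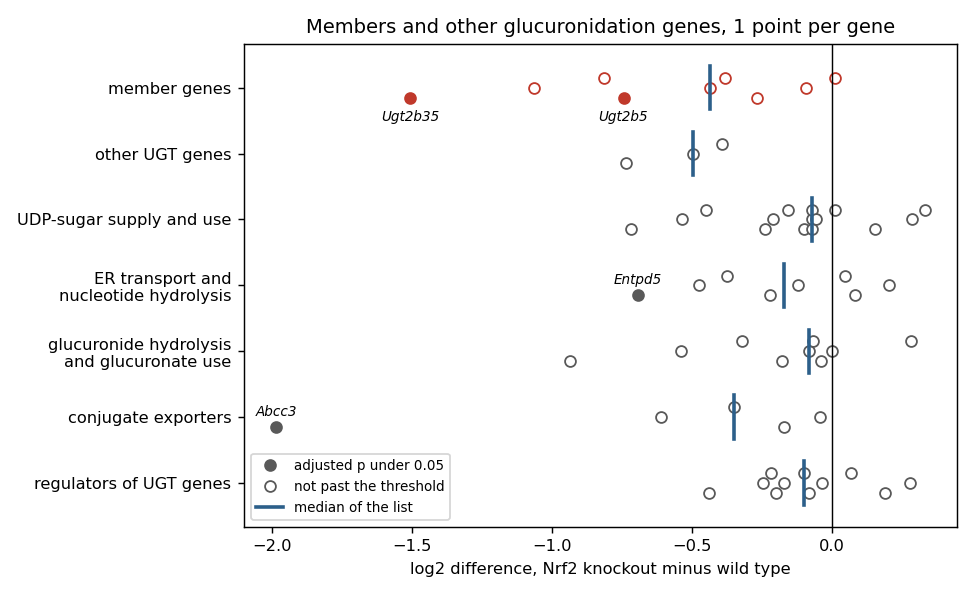
Log2 difference, Nrf2 knockout minus wild type, with 1 point per gene at its brightest probe set, for the 9 member genes and 6 lists of other glucuronidation genes (ER, endoplasmic reticulum); filled points passed an adjusted p of 0.05 and vertical bars are list medians. The member median is -0.43 and the medians of the 6 lists lie between -0.50 and -0.07.

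The genes whose pattern over the 6 arrays was most like that of the called members were found by the root mean square difference of log2 values, each taken minus the gene's wild-type mean, among 11101 other tested genes. Nearest to Ugt2b35 were Ephx1 (microsomal epoxide hydrolase, 0.22 log2 apart), Aox3 and Aox1 (aldehyde oxidases, 0.24 and 0.28), Me1 (malic enzyme, 0.32) and the transcription factor gene Bhlha15 (0.32). The first 4 of these fell, with log2 differences of -1.30 for Ephx1, -1.65 for Aox3, -1.78 for Aox1 and -1.78 for Me1. Bhlha15 did not pass at -1.36 (adjusted p = 0.365). The measure selects genes with a difference of like size, so the lower levels of these 5 genes are no separate result. Nearest to Ugt2b5 were Gstm4 (a glutathione S-transferase, 0.06), Entpd5 (0.09), Camk2b (a calcium-dependent kinase, 0.10), Rab4a (a small GTPase, 0.11) and Tgm1 (a transglutaminase, 0.13). Of these 5, Entpd5 passed, and the others had log2 differences of -0.63 to -0.81 with adjusted p-values of 0.0664 to 0.406. Entpd5 stood near Ugt2b5 in the size of its difference, which this measure selects for. In knockout pools 1, 2 and 3 Ugt2b5 was at 12.09, 12.12 and 12.15 log2, and Entpd5 at 9.88, 9.77 and 9.71 log2. The pools thus ranked in opposite order for the 2 genes, with SDs among them of 0.03 and 0.09 log2. Pool numbers are replicate labels with no stated order.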

How the data were processed

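Liver RNA of 6 pools was hybridised to 1-colour Affymetrix arrays. The deposited values are linear probe set intensities, from 0.0174 to 16555. Per the submitters' processing notes, GCOS 1.4 was used; how signals were computed and scaled is not given in the sources used here. GEO's platform annotation named a probe set where it gives 1 gene (34945 of 45037, with 932 having several and 9160 none), with symbols brought up to date by Entrez identifier.

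The 25th percentile of all intensities, 5.26, was added before the log2 step, and arrays were quantile normalized. Probe sets whose mean reached the median were tested (22519) with limma 3.58.1 in R 4.3.3 (lmFit, eBayes with an intensity trend), two-sided, with Benjamini-Hochberg adjustment over all of them and a threshold of 0.05. On this scale fold changes of dim probe sets come out too small. The procedure was tested on simulated data with independent noise at each probe set. Those data held no effect shared across an array, so they cannot show how calls hold up to such effects. Promoter windows were aligned with MAFFT 7.526.

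The members and lists were chosen with earlier results of these data known. All 9 members were named, then, from 6 lists, genes past the threshold and the 3 with the smallest p, then the 5 genes most like each called member. Lists are described by counts and medians. Alternatives were median centring, a pseudocount of 1.31 or 21.0, no filter, no trend, a block for the replicate number, leaving out each pool, and averaging all probe sets of a gene. The number of arrays limits the precision.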

Additional observations from a re-analysis of the deposited data

How the results depend on the processing

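The 6 Ugt2b genes and Ugdh were lower in the knockout under all 13 alternatives. Over the 9 member genes, 108 of 117 combinations kept the direction and the side of the threshold, 2 lost a call, 3 gained one and 4 changed sign. Ugt2b35 passed in all 13 (adjusted p 0.00250 to 0.0465), and Ugt2b5 in 11, missing with median centring (-0.77) and without the intensity trend (-0.74). Ugt2b38 passed with median centring (-1.12). Ugt2a3 changed sign with median centring (-0.020). The cause of these changes was not tested.

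With 1 pool left out, log2 differences were -0.81 to -0.68 for Ugt2b5, -1.26 to -0.91 for Ugt2b38, -0.38 to -0.15 for Ugt2b36, -1.003 to -0.69 for Ugdh, -0.09 to 0.12 for Ugt2a3 and -0.22 to 0.04 for Ugp2. Ugt2a3 was negative without knockout pool 1 (-0.064) or wild-type pool 3 (-0.090), and Ugp2 was positive without knockout pool 2 (0.036). Of all probe sets 32 passed, against 18 to 29 with 1 pool left out (19 when knockout pool 1 or 2 was dropped and 18 when wild-type pool 2 was), 20 without the filter, 18 without the trend and 41 with median centring. Of the member probe sets 2 passed, against 2 to 3 with 1 pool left out and 1 without the trend. Of the other glucuronidation genes 2 passed, against 0 to 2 with 1 pool left out, 1 without the filter, 0 without the trend and 1 with the replicate block.

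Deviations of same-numbered pools correlated at 0.13, 0.05 and 0.25 across probe sets. Knockout pool 2 with wild-type pool 1 gave 0.10, knockout pool 1 with wild-type pool 2 gave 0.07, and the remaining combinations -0.19 to -0.10. Wild-type pools 1 and 3 thus correlated best with the knockout pool of their own number, and wild-type pool 2 with knockout pool 1. The main fit did not take the numbers as pairs, and whether same-numbered pools were handled together was not tested. With the replicate number as a block 32 probe sets passed, Ugt2b35 (adjusted p = 0.0131) and Ugt2b5 (0.0164) among them, and Abcc3 did not (0.0587). Ugdh fell just short in that fit (adjusted p = 0.0507, against 0.170 without the block), as did Ugt2b38 (0.0587, against 0.0740).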
